A study of Mus musculus with 8 samples.

Results

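The wide intergenic regions are stretches of open chromatin of 500 bases or more that lie outside annotated genes but within reach of one. They were taken from the single set of consensus regions that an ATAC-seq study of mouse medullary thymic epithelial cells (mTECs) produced. ATAC-seq uses the Tn5 transposase to insert adapters where DNA is not wrapped in nucleosomes. A region was a member when it lay on an autosome, was at least 500 bases wide, and had its centre in no gene body and more than 2000 and at most 100000 bases from the nearest transcription start of the GENCODE M21 basic annotation (mm10). By this rule 1021 of the 57124 consensus regions were members, or 1.79% (95% Wilson interval 1.68 to 1.90). In 20 members some base lay in a gene body although the centre did not. Width and position alone chose them. The deposited read counts did not enter the choice, but the widths come from peaks called on the reads and then merged.

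All 8 samples were mTECs of the thymus of wild-type (wt) mice. The study's methods give BL6N6 mice at 4 to 6 weeks of age, depletion of CD45-positive cells, and cell sorting with antibodies to EpCAM, CDR1, MHC class II and Tspan8. The 4 groups were Tspan8neg MHCIIlow, Tspan8neg MHCIIhigh, Tspan8pos MHCIIlow and Tspan8pos MHCIIhigh, with 2 samples each. Tspan8, a tetraspanin, served there as an example of a tissue-restricted antigen, and MHC class II as a sign of maturation. The consensus regions were merged over samples, so a member belongs to the set and to no group, and nothing below compares groups. The table's 8 columns of read counts match no sample label and were not used, so the depth behind a region is not analysed here. All intervals express counting error alone, as neither regions nor genes are replicates of the experiment.

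Distal open chromatin of this kind can hold enhancers, silencers and insulators, which are bound by sequence-specific factors and act on promoters over a distance. AP-1 factors (FOS and JUN dimers) and ETS factors bind many epithelial enhancers. NF-kB, acting downstream of RANK, CD40 and the lymphotoxin beta receptor, is needed for mTEC development. CTCF marks insulators and the anchors of chromatin loops, and p63 is a master regulator of stratified and thymic epithelium. The nearest gene is a label of position, since an enhancer may act on a gene farther away.

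The central bases of a few members show what these sequences look like. They are reference sequence (GRCm38, the assembly behind mm10), plus strand, 5′ to 3′, from members whose nearest gene stands on 1 of 12 gene lists. They are the widest such member and then, for each motif, the widest with a match inside the window printed, which is the central 200 bases, or 300 for p63. Capitals mark matches to the motif named on the line, on either strand. All of them lie between genes. Tnfaip3 (the NF-kB inhibitor A20) labels the widest of them, and its 200 bases at chr10:19035209-19035408 hold no match to any of 12 motifs searched, though an ETS match stands within its central 500 bases. For Bach1, a bZIP repressor, chr16:87665437-87665636 holds a pair of AP-1 matches, as does chr17:87609770-87609969 upstream of Epcam, the adhesion molecule used in the sort. Windows downstream of Nfkbia, which encodes the NF-kB inhibitor IκBα (chr12:55484449-55484648), and of Sox9, an HMG-box factor (chr11:112788331-112788530), hold an NF-kB match each. An ETS match stands in chr16:87690351-87690550, in another member upstream of Bach1, and in chr16:25624231-25624430, upstream of Trp63, the gene of p63. The 300 bases at chr1:74816810-74817109, downstream of the WNT ligand gene Wnt10a, hold a p63 match.
Tnfaip3, no match in this window: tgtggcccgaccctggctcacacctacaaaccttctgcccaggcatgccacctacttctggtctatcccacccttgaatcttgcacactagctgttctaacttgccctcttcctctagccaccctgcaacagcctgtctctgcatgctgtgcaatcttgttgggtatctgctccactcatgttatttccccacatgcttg
Bach1, AP-1: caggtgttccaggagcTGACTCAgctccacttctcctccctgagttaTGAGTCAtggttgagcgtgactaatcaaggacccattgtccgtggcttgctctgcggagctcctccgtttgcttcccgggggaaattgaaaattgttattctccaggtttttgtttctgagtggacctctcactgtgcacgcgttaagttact
Epcam, AP-1: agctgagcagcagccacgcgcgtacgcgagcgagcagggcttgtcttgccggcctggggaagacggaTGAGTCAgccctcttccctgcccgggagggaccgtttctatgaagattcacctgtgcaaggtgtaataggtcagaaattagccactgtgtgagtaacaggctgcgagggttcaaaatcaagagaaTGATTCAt
Nfkbia, NF-kB: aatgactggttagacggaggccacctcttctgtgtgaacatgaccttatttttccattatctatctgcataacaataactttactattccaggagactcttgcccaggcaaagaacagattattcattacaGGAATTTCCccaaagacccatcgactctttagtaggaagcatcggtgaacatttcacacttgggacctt
Sox9, NF-kB: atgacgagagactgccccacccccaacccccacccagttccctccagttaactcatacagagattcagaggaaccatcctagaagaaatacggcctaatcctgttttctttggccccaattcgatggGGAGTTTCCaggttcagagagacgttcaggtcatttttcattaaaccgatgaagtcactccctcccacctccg
Bach1, ETS: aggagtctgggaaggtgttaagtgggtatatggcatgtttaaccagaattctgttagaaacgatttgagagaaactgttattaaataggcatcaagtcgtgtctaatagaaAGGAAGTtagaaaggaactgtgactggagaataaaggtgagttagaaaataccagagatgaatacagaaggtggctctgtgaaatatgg
Trp63, ETS: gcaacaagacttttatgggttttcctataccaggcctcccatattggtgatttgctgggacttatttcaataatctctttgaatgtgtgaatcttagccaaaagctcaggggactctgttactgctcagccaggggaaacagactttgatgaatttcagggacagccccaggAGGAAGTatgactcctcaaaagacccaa
Wnt10a, p63: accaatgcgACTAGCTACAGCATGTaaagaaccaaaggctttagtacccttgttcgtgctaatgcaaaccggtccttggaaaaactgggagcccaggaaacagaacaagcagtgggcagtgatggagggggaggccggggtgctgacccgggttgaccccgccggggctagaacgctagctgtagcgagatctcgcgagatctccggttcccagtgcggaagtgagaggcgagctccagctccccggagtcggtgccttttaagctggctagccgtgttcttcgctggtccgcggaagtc

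One more sequence is shown because it holds more AP-1 matches than any other member. It was chosen after its values were seen. The member at chr17:65961481-65962217, 10623 bases upstream of Twsg1 (a BMP-binding protein), had 14 matches in its central 500 bases. The next highest count was 3, in members that included both of those near Capn2, a calpain protease gene. The starts of neighbouring matches at Twsg1 were a median of 27 bases apart (20 to 74), in an array of short repeated units. Repeat masking covered 5.29% of this member, and 95.2% of its 31-base words occurred once in the reference. The central 300 bases, chr17:65961699-65961998, hold 9 of the matches.
Twsg1, AP-1: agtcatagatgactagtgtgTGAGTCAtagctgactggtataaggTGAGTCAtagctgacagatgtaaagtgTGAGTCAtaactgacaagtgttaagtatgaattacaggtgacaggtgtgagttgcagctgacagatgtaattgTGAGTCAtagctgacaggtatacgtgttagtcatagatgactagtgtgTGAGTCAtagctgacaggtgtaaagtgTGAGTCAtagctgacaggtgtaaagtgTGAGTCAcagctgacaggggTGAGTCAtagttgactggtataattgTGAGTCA

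The members made up a small and fairly uniform class by width. They covered 680 kb, 3.90% of all bases in consensus regions. The median width was 615 bases (quartiles 548 and 727), and 558 members reached 600 bases, 159 reached 800, 49 reached 1000 and 5 reached 1500. At the lower limit, 1 member was 500 bases wide, near Klhl33, while 5 regions of 499 bases fell just outside. Wide regions in introns at the same distances were alike, with a median of 608 bases (540 and 717; n = 1008). Wide promoter regions had a median of 716 bases (598 and 892; n = 5818).

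**Figure D1:**
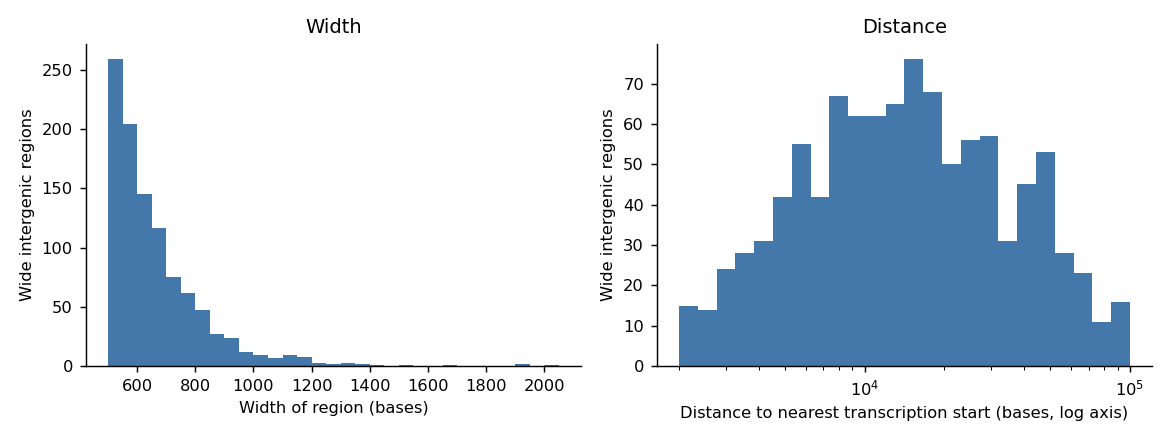
Number of wide intergenic regions (y axis) by width in bases (left) and by distance from the centre to the nearest transcription start on a log axis (right), over all 1021 members. Most are between 500 and 727 bases wide with a thin tail to 2017, and the distances centre on a median of 14216 bases.

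Within the distance window, being wide was uncommon between genes in every bin of distance. Of the 20193 autosomal regions with their centre outside gene bodies, 14913 lay in the distance window, and 6.85% of these (interval 6.45 to 7.26) were wide. The share was 6.70% (5.69 to 7.87) from 2000 to 5000 bases, 7.88% (6.97 to 8.89) from 5000 to 10000, 7.45% (6.66 to 8.33) from 10000 to 20000, 6.19% (5.51 to 6.94) from 20000 to 50000 and 5.53% (4.54 to 6.72) from 50000 to 100000, each bin without its lower limit. Neighbouring intervals overlapped, while that of 5000 to 10000 bases lay above the farthest. Among intronic regions at these distances 5.39% (5.08 to 5.73) were wide. A further 1690 wide regions outside gene bodies, more than the 1021 members, were nearer than the window, and 33 were beyond it. The share of wide regions was not calculated outside the window. The nearest member to a start lay 2069 bases from Mir17hg, the host gene of a microRNA cluster, and the next 2089 bases from Dusp4, a MAP kinase phosphatase. A wide region 1992 bases from Ftl1-ps2 fell just outside. The farthest member lay 99043 bases from Thbs2, a thrombospondin gene, and the nearest wide region beyond the limit 101479 bases from Gm34562.

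More members lay upstream of their nearest start than downstream, most clearly close to it. Upstream here means on the 5′ side by the strand of that gene, and it held for 612 of 1021 members (59.9%, 56.9 to 62.9). The share was 68.4% (60.2 to 75.6) from 2000 to 5000 bases and 54.4% (48.5 to 60.3) from 20000 to 50000. Narrow intergenic regions, the 13892 regions under 500 bases in the same places, gave 60.4% (59.6 to 61.2), a share within the interval of the members. Leaving gene bodies out removes sequence on the downstream side, and wide intronic regions had 37.3% (34.4 to 40.3) upstream. Where the nearest gene was protein-coding, 69.5% of members (64.7 to 73.9) and 72.6% of narrow intergenic regions (71.3 to 73.8) were upstream of it.

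**Figure D2:**
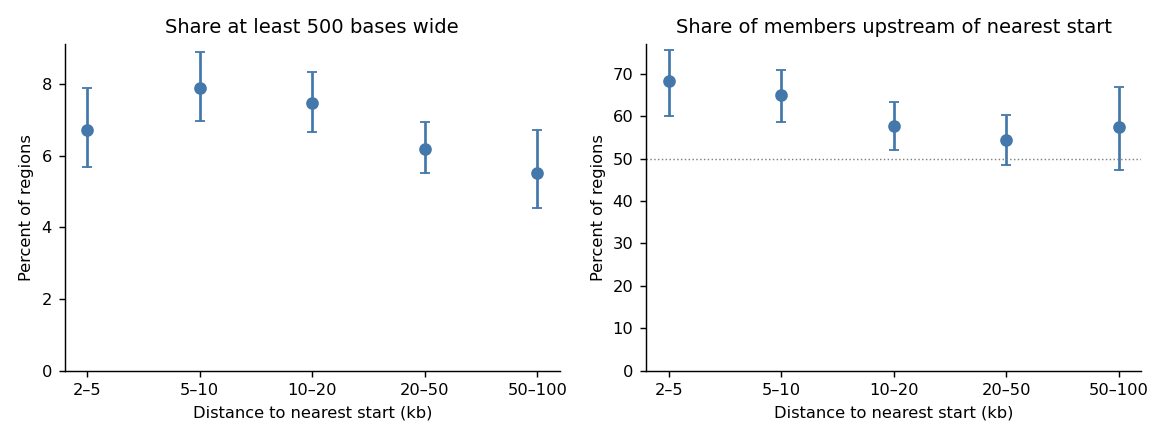
Left, percent of autosomal regions outside gene bodies that were at least 500 bases wide, by distance to the nearest start in kb. Right, percent of wide intergenic regions upstream of that start, with a dotted line at 50%; points are shares and bars 95% Wilson intervals. The share of wide regions stays between 5.53% and 7.88%, and the upstream share is highest, 68.4%, in the nearest bin.

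The gene nearest to a member was most often not a protein-coding gene. Of the 1021 members, 387 (37.9%, 34.98 to 40.9) had a protein-coding gene nearest, 260 (25.5%) a long noncoding RNA gene, 235 (23.0%) a pseudogene, 95 (9.30%) a small RNA gene and 43 (4.21%) a locus with no settled class. Narrow intergenic regions had nearly the same make-up, with 37.6% protein-coding (36.8 to 38.4). Wide intronic regions differed, with 52.7% (49.6 to 55.7). The nearest protein-coding start was a median of 31531 bases from a member (quartiles 14260 and 76759), and within 100000 bases for 82.2% of members.

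The genes on either side of the members were oriented much as around intergenic bases as a whole. The interval between them had a median of 46828 bases (n = 1018 members with a gene on both sides). Those genes pointed away from each other for 23.6% of members, the same way for 52.0% and towards each other for 24.5%. Over all bases between genes the shares were 22.6%, 52.4% and 24.99%. Across autosomes the members per Mb of known sequence ranged from 0.241 on chromosome 19 to 0.586 on chromosome 15.

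Members seldom stood next to each other but often had some other region near. The nearest region of any width was a median of 6416 bases away (quartiles 2398 and 14541), compared with 7380 for narrow intergenic and 6273 for wide intronic regions. It was within 5000 bases for 41.0% of members (38.1 to 44.1), compared with 39.0% (38.2 to 39.8) and 41.4% (38.4 to 44.4). The nearest other member was a median of 418199 bases away, and within 5000 bases for 28 members. With gaps of at most 10000 bases allowed, 31 groups of 2 or more held 65 members. The largest had 4 members, 640 to 827 bases wide, over 14347 bases near the testis gene Tex44 (chr1:86434155-86448501), among 6 regions of any width. A group of 3 lay near Rpia, which encodes a pentose phosphate pathway enzyme (chr6:70805440-70825217).

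The members were spread over many genes. In all, 946 genes of any type were nearest to a member, and 887 of these to exactly 1. Gm43674, a long intergenic noncoding RNA gene, had 6 members over chr3:21904849-21988303, from 10417 to 93053 bases from its start and 505 to 1133 bases wide. The small RNA gene Gm22477 had 5 over chr4:11848136-11914990, and Tex44 had 4. A further 7 genes had 3 each, namely Bach1, Dnajc5b, Gm15754, Gm22808, Gm25888, Gm45627 and Gm5466. The widest member in these 10 sets belonged to Gm43674, at 1133 bases, followed by Gm5466 at 1095 and Gm45627 at 1026. Among protein-coding genes alone, the Gm43674 members counted for Tbl1xr1, a subunit of nuclear corepressor complexes whose start was 88601 to 171237 bases away. By that count Tex44 had 5, and Bach1, Dusp4, Med13l and Pdp1 had 4 each, up to 144354 bases away for Dusp4. A further 16 genes had 3 each. The listed genes among them included Ets2, an ETS factor gene (19486 to 42561 bases), and the Krüppel-like factor genes Klf6 (16586 to 84309) and Klf5 (92679 to 325687). Tbl1xr1, Dusp4, Med13l, Pdp1, Klf5 and Klf6 were named here after their counts were seen.

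The 10 widest members included several of unusual sequence. The widest, 2017 bases on chromosome 18, lay 6305 bases upstream of the pseudogene AC125218.3, and 82.9% of its 31-base words occurred once in the reference. A member of 1909 bases near the pseudogene Vmn1r-ps2 (chr4:3089607-3091515) was 74.5% repeat. Another of 1908 bases near Gm5626 (chr13:74528698-74530605) was 99.7% repeat, with 14.3% of its words unique. Then came members near Gm18407 (1695 bases, a CpG ratio of 0.783), Gm23664 (1544), Tmem125 (1439), Gm12974 (1394) and Ccr1 (1384), a chemokine receptor gene 43782 bases away. Of the words of the member at Tmem125, a transmembrane protein gene, 12.5% were unique, and of those at Ccr1 61.8%. The member near Elovl5, a fatty acid elongase gene, had 1343 bases, a CpG ratio of 0.646 and 100% unique words. The member at Tnfaip3 had 1306 bases (chr10:19034657-19035962), a GC content of 47.0% and 100% unique words.

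For members as a whole the sequence was mostly unique. A 31-base word counts as unique when it occurs once, on either strand, in the chromosomes and unplaced scaffolds. All words were unique in 761 members (74.5%, 71.8 to 77.1) and at least 90% of words in 941 (92.2%, 90.4 to 93.7). Under 50% were unique in 12 members, 2 of them among the 49 of 1000 bases or more. A member near the pseudogene Gm7281 (chr1:85346403-85346998) had 0% unique words. In none of the 1021 members was a word shared with the mitochondrial genome, with a Wilson interval up to 0.375%.

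GC content rose and repeats fell over the width of the members. The median GC content was 51.0% (quartiles 46.8 and 55.2), compared with 45.0% (41.0 and 48.6) in 2042 windows of 500 bases centred 5000 bases to either side, and 41.9% over the autosomes. Masked repeats made up a median of 7.85% of a member and 24.6% of a flanking window. The flanking windows were not screened for genes or for other consensus regions, so some may hold them. Wide intronic regions had a GC content of 50.9% and 7.84% repeat. Wide promoter regions had 66.5% and 4.13%. Averaged in bins of 50 bases, the GC content of members was 51.1% at the centre, reached 52.2% 225 bases to one side, and averaged 44.9% beyond 2000 bases, where repeats averaged 31.6%.

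**Figure D3:**
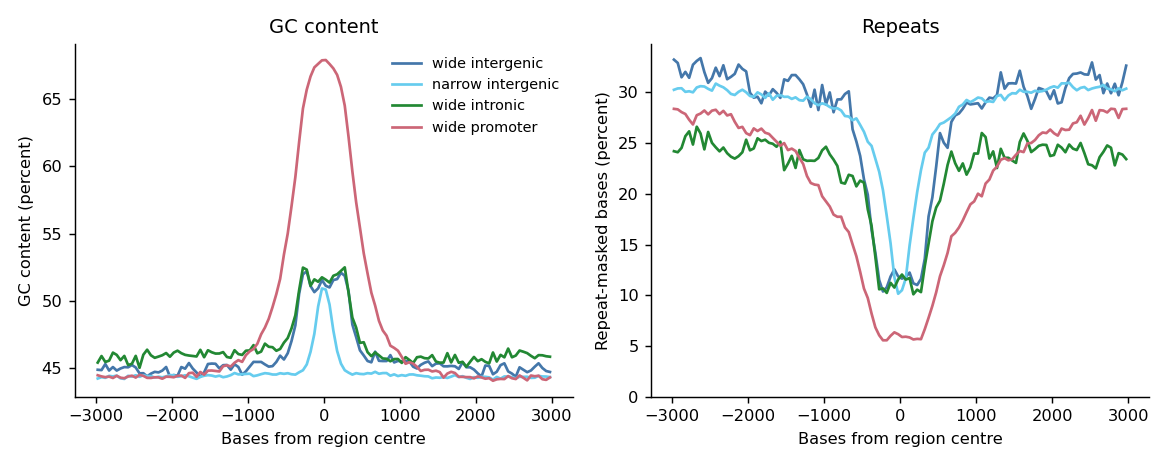
GC content (left) and repeat-masked bases (right), in percent, by bases from the region centre in bins of 50 bases, averaged over wide intergenic, narrow intergenic, wide intronic and wide promoter regions. The wide intergenic curve forms a plateau of GC content near 52% that returns to about 45%, close to the wide intronic curve and far below the promoter peak, and repeats drop to near 10%.

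A minority of members had the CpG content of promoters. The CpG ratio is the number of CpG dinucleotides over that expected from the C and G content, and vertebrate promoters of broadly active genes often keep it high. Its median was 0.271 in members, 0.264 in wide intronic regions and 0.830 in wide promoter regions. With a GC content of at least 50% and a ratio of at least 0.6, 123 members (12.0%, 10.2 to 14.2) were CpG-rich. Narrow intergenic regions gave 5.97% (5.59 to 6.38), wide intronic 9.82% (8.13 to 11.8) and wide promoter regions 90.2% (89.4 to 90.9). Among members, the share was 9.07% (6.78 to 12.0) under 600 bases wide and 22.0% (16.3 to 29.1) at 800 or more. It was 16.1% (12.7 to 20.2) within 10000 bases of a start and 9.72% (7.67 to 12.2) farther away.

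Some of these members had a transcription start in another annotation. Within 1000 bases of the centre, RefSeq placed a start for 88 members (8.62%, 7.05 to 10.5), of which 15 were known rather than predicted transcripts. Of the CpG-rich members 25.2% (18.4 to 33.5) had such a start and of the others 6.35% (4.93 to 8.14). Narrow intergenic regions gave 4.37% (4.04 to 4.72). The comprehensive GENCODE set placed a start there for 10 members, all among these 88. RefSeq's functional elements, which are regulatory sites curated from experiments, overlapped 16 members (1.57%, 0.967 to 2.53) and 0.504% of narrow regions (0.399 to 0.636). A wider region has more bases to overlap with. The elements included VISTA enhancers, DNA tested in mouse embryos, around the member upstream of Fos (chr12:85454971-85455773 within chr12:85454400-85456289) and around the p63-bearing member downstream of Wnt10a (chr1:74815064-74818307). Another VISTA enhancer overlapped the member upstream of Fosb (chr7:19319667-19320286).

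The AP-1 motif was the most common of the 12 searched in the members. The motifs differ in length, from 7 bases for AP-1 to 16 for p63, and in fixed bases. Shares of different motifs are therefore not on one scale. In the central 500 bases, TGANTCA matched on either strand in 372 of 1021 members (36.4%, 33.5 to 39.4), and in 14.0% (12.6 to 15.6) of the flanking windows. Wide intronic regions had 38.7% (35.7 to 41.7), wide promoter regions 6.29% (5.70 to 6.94) and all 10299 wide autosomal regions 13.3% (12.6 to 13.9). At least 2 matches were present in 123 members and at least 3 matches in 19. Matches were denser over the whole plateau of the region than outside it, with 102 per 1000 members and 100 bases within 300 bases of the centre and 28.2 beyond 500.

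NF-kB, p63 and CTCF matches were rarer but stood above the flanks as well. The NF-kB motif GGANTTTCC occurred in 94 members (9.21%, 7.58 to 11.1) and 1.86% of flanks (1.36 to 2.54). The p63 pattern, a palindromic pair of short sites, occurred in 35 (3.43%, 2.48 to 4.73) and 1.08% of flanks (0.713 to 1.63). The CTCF core pattern occurred in 37 (3.62%, 2.64 to 4.96) and 0.441% of flanks (0.232 to 0.836). Wide intronic regions had 9.13% (7.50 to 11.1), 2.18% (1.45 to 3.28) and 3.08% (2.17 to 4.33), and all wide autosomal regions 3.82%, 1.01% and 2.56%. Flanks had a lower GC content and more repeats than members, and the part of base composition in these differences was not tested.

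ETS and Krüppel-like motifs were common in members and commoner in promoters. The ETS motif (CGGAAGT or AGGAAGT) occurred in 17.9% of members (15.7 to 20.4), 13.8% of flanks (12.4 to 15.4) and 23.7% of wide promoter regions (22.6 to 24.8). The KLF motif GGGNGTGG occurred in 22.2% of members (19.8 to 24.9), 15.4% of flanks (13.9 to 17.1) and 34.2% of wide promoter regions (33.0 to 35.4). Over all wide autosomal regions the shares were 21.2% and 30.6%. CRE (TGACGTCA), the motif of CREB and ATF factors, was in 1.67% of members (1.04 to 2.65), 0.490% of flanks (0.266 to 0.899) and 4.26% of wide promoter regions (3.77 to 4.81). Wide promoter regions had a median GC content of 66.5% and CpG ratio of 0.830, compared with 51.0% and 0.271 in members. The part of base composition in these differences was not tested either.

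Forkhead (TGTTTAC), the motif of FOX factors, was in 9.01% of members (7.40 to 10.9) and 6.27% of flanks (5.30 to 7.40). The forkhead intervals of members and flanks met at 7.40, and for the next 3 motifs the intervals of members and flanks overlapped. These were RUNX (TGTGGTT) in 13.2% (11.3 to 15.4) and 12.0% (10.7 to 13.5), and the interferon-stimulated response element (ISRE, a pattern for IRF factors) in 7.74% (6.25 to 9.54) and 7.64% (6.57 to 8.87). The POU octamer ATGCAAAT, bound by factors such as POU2F3 of tuft cells, was in 3.82% (2.81 to 5.18) and 3.13% (2.46 to 3.98). All wide autosomal regions had 3.78%, 5.84%, 4.13% and 1.95% for these 4 and 3.54% for CRE. The grainyhead-like motif AACCGGTT matched in 2 members, 0.196% (0.0537 to 0.711), in 0.0490% of flanks (0.00865 to 0.277) and in 0.320% of all wide autosomal regions. Its intervals for members and flanks overlapped as well. Matches of different motifs shared bases in few members, at most 4 for a pair, KLF and RUNX. No motif of the 12 matched in 227 members (22.2%), and 1 matched in 415.

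**Figure D4:**
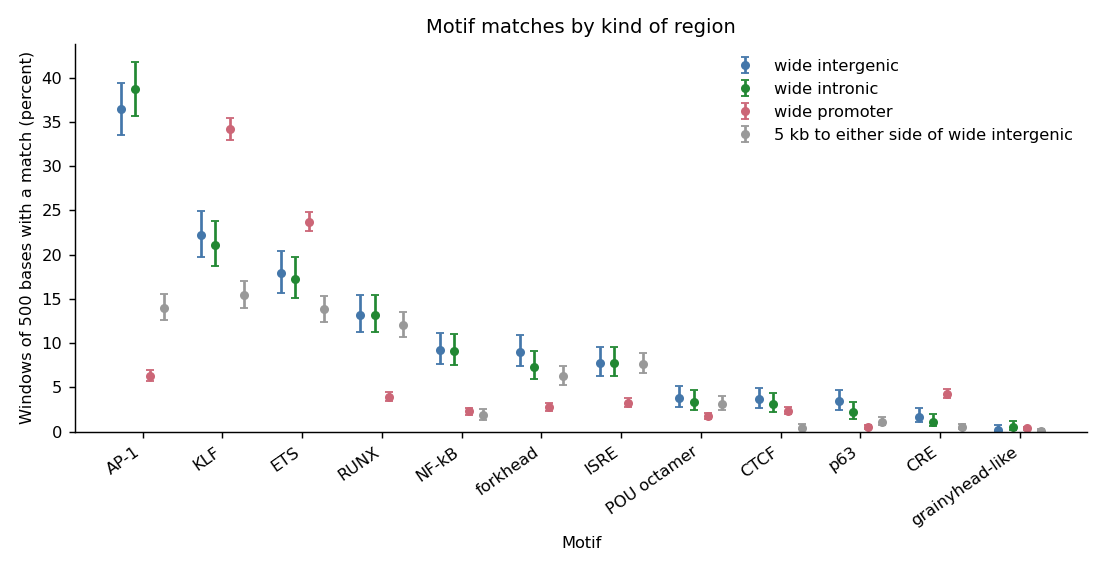
Percent of windows of 500 bases with at least 1 match to each of 12 motifs, for wide intergenic (n = 1021), wide intronic (n = 1008) and wide promoter regions (n = 5818) and for windows 5 kb to either side of the wide intergenic regions (n = 2042), with 95% Wilson intervals. Wide intergenic and wide intronic points nearly coincide, AP-1 stands highest in both, and promoters lead for KLF, ETS and CRE.

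Motif content varied among members with CpG content and width. Of the 123 CpG-rich members 12.2% (7.53 to 19.1) held an AP-1 match, compared with 39.8% (36.6 to 43.0) of the other 898. For NF-kB the shares were 2.44% (0.833 to 6.93) and 10.1% (8.33 to 12.3), and for RUNX 3.25% (1.27 to 8.06) and 14.6% (12.4 to 17.0). CTCF went the other way, with 8.13% (4.48 to 14.3) and 3.01% (2.07 to 4.34), as did KLF, with 31.7% (24.1 to 40.4) and 20.9% (18.4 to 23.7). AP-1 matches were in 41.3% (36.9 to 45.8) of members under 600 bases wide and 27.7% (21.3 to 35.1) of those of 800 or more, in windows of equal length. CpG-rich members made up 9.07% and 22.0% of these width bands, and width was not separated from CpG content. CTCF was in 5.90% (3.93 to 8.77) of members within 10000 bases of a start and 2.31% (1.41 to 3.78) of those farther away. The CpG-rich shares there were 16.1% and 9.72%, and distance was not separated from CpG content either. AP-1 and NF-kB matches occurred together in 33 members (3.23%) and in 3.67% of wide intronic regions. AP-1 and ETS matches did so in 74 members (7.25%) and in 6.75% of wide intronic regions. For both pairs the intervals of members and wide intronic regions overlapped. Whether these motifs occurred together more often than their single shares would give was not tested.

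**Figure D5:**
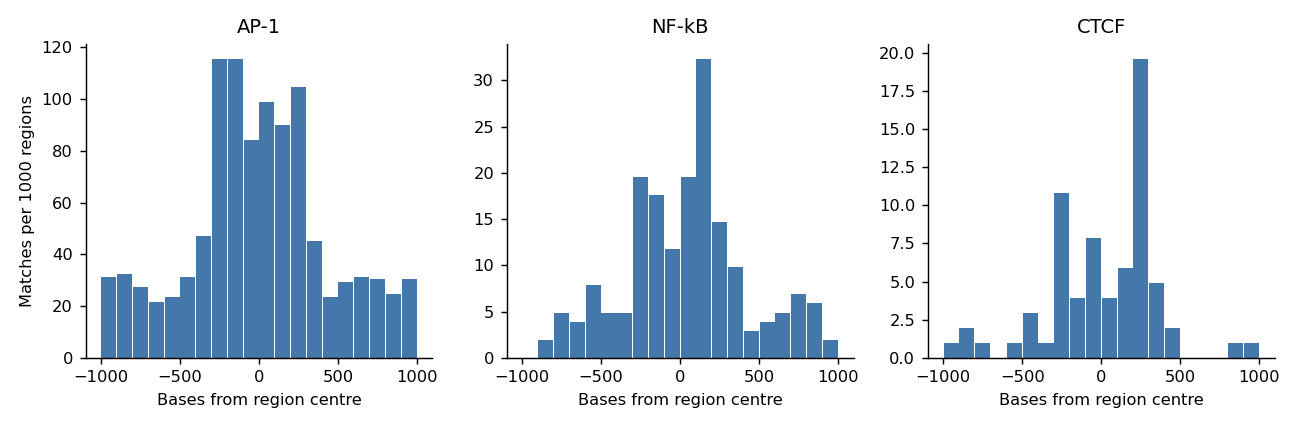
Matches per 1000 wide intergenic regions in bins of 100 bases, by bases from the region centre, for AP-1, NF-kB and CTCF, all with y axes from 0 but on different scales. AP-1 matches are raised across the central 600 bases, to 116 per 1000 at most, and fall to about 30 outside, and NF-kB and CTCF follow with fewer matches.

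Of the 20807 autosomal protein-coding genes, 358 were nearest to a member among genes of any type, a background of 1.72%. Counting only protein-coding starts 890 were nearest (4.28%), and 2344 had a member within 100000 bases of a start (11.3%). A region at their own promoter was present for 198 of the 358 genes (55.3%, 50.1 to 60.4). That share was 54.5% (52.8 to 56.2) for genes nearest to narrow intergenic regions and 49.6% (49.0 to 50.3) for all autosomal protein-coding genes.

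Listed genes of epithelial and signalling function were among those nearest to members. The lists were chosen with earlier results known, so their counts are descriptions beside the background. That background was 1.72% of all autosomal protein-coding genes nearest to a member, and differences from it were not tested. Among 18 thymic epithelial regulators, 3 were nearest to a member, Pax9 and Trp63 among them. Pax9 acts in the pharyngeal pouch from which the thymus forms. The member at Pax9 was 666 bases wide and 10328 bases upstream, and that at Trp63 was 624 bases wide and 59432 bases upstream. Foxn1, Aire and Fezf2 had none nearest. Pax9 and Trp63 also had a region at the promoter.

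Genes of AP-1 and NF-kB factors and their regulators followed, beside the background of 1.72% of all autosomal protein-coding genes. Of 16 AP-1 and related genes, 3 had a member nearest, which were Bach1 (3 members, 663 to 679 bases wide), Fos (2 members, 18518 bases upstream and 24029 downstream) and Fosb (9925 upstream). Of 18 NF-kB pathway genes, 3 had one, which were the inhibitor genes Tnfaip3 (19899 upstream and 24085 downstream) and Nfkbia (8098 and 28013 downstream) and the atypical IκB gene Bcl3 (9375 upstream). Both members at Nfkbia, 710 and 900 bases wide, lay outside its promoter, where no region was centred. The inner one held ETS, KLF and NF-kB matches in its central 500 bases. Ets2 (2 members upstream) and Klf3 were the 2 of 24 ETS and KLF genes.

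Adhesion and signalling lists had 5 genes each, beside the same background of 1.72%. Among 22 keratin, cornification and adhesion genes these were Krt18, a simple-epithelium keratin (6505 bases), the desmosomal genes Dsp (6008) and Pkp1 (10961), the tight-junction gene Cldn4 (19520) and Epcam (26109), with distances to the member in parentheses. AP-1 matches were in the members at Krt18, Dsp and Epcam and not in those at Pkp1 and Cldn4. Among 21 EGFR, Notch and WNT genes they were the ligand gene Tgfa, the receptor gene Notch2, the Notch target Hes1, the WNT ligand gene Wnt10a and the WNT feedback gene Axin2. Wnt10a had 2 members, 15449 and 25444 bases downstream.

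The remaining lists had at most 2 genes with a member nearest, beside a background of 1.72% of all autosomal protein-coding genes. Of 25 lineage factors of mimetic cells (mTECs that take on peripheral cell programmes) these were Sox9 (6207 bases) and Cdx2 (7622), and of 20 chemokine and cytokine genes Csf1, the macrophage growth factor gene (10382). The 16 tuft cell genes had 0 by any count, also within 100000 bases. The backgrounds were 1.72% nearest, 4.28% nearest by protein-coding starts and 11.3% within 100000 bases. A difference of this short list from them was not tested. Of the 16, 8 had a region at the promoter, beside 49.6% of all autosomal protein-coding genes. None of the 17 antigen presentation and costimulation genes was nearest to a member. Of these, 6 genes of the MHC region on chromosome 17 had one within 100000 bases, and they shared 2 members between them.

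The labelled cell type was checked by the regions centred in marker promoters. A region that only overlapped a promoter did not count. Of 11 mTEC and thymic epithelial markers 10 had a region at the promoter, all but Fezf2. Of 16 thymocyte markers 2 had one (Bcl11b and Tcf7), and of 16 fibroblast, endothelial and myeloid markers 3 (Twist1, Kdr and Cx3cr1). The share with one over all autosomal protein-coding genes was 49.6%. Members were nearest to Trp63 and Epcam of the first list and to 0 markers of the other lists. Over all autosomal protein-coding genes, 1.72% were nearest to a member and 11.3% had one within 100000 bases. Differences between these short lists and the background were not tested. Within 100000 bases, 5 thymocyte genes had a member, of which Cd3d, Cd3e and Cd3g shared the one at chr9:45027410-45028052, 18118 bases from Cd3e. Cd4 had 2, the nearer at 15830 bases, and Cd2 had 2, the nearer at 30759. None of these 5 genes had a promoter region. Of the fibroblast, endothelial and myeloid genes, Spi1 (17407 bases) and Lyz2 (52034) had a member within 100000 bases, also without a promoter region. Counting only protein-coding starts, Cd2 and Cdh5 were nearest to a member, which for Cdh5 lay 518652 bases away. The part of other cells in the merged set was not tested.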

How the data were processed

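Open chromatin was profiled by ATAC-seq in 8 samples, 2 for each of 4 sorted mTEC groups. The authors aligned reads to mm10 with Bowtie2, removed mitochondrial, multimapping and low-quality reads with SAMtools and duplicates with Picard. Broad peaks from MACS2 were merged with bedtools. It is not stated if the caller ran on single or pooled samples, and merging and the caller set a region's width. Used here from the deposited table were the start, end and length of each merged region in bases, written by featureCounts 2.0.3 per the file headers. The 8 count columns match no sample label and were not used in any step.

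Regions were placed by their centre on GENCODE M21. The last region of each autosome ended within the GRCm38 reference, with 0 exceptions. A promoter ran from 1000 bases upstream to 100 downstream of a start. Repeats are soft-masked bases. Motifs were searched on both strands of the central 500 bases. Region and motif functions were tested on simulated data. Named were the 10 widest members, the 10 genes with most members, list genes and members at the limits, and sequences came from the widest list-gene members by motif. Other genes were named after their values were seen, and 1 list gene is not reported here. The members and lists were chosen with earlier results of these data known. No test was run, because regions and genes are not replicates, and shares have 95% Wilson intervals. Alternatives covered width, distance, annotation and windows. The tools were pandas 2.3.3 and NumPy 2.4.6 in Python 3.11.15, with SciPy 1.17.1 for intervals and matplotlib 3.10.9 for figures.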

Additional observations from a re-analysis of the deposited data

How the results depend on the processing

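No paired analysis was possible because no value used here belongs to a sample, and so none has a replicate number. The number of members, 1021, follows the width limit closely, with 1875 at 400 bases, 558 at 600 and 159 at 800. It was between 885 and 1171 under the other planned definitions of distance, gene body and annotation. Chosen after seeing the data, it was 941 with at least 90% unique words and 933 without a RefSeq start within 1000 bases. The share with a protein-coding gene nearest was 41.4% with the comprehensive annotation and 34.6% at 800 bases. The upstream share was 65.8% with protein-coding genes alone and 56.6% at 800 bases. The share of nearest genes with a promoter region was 77.1% when a region had only to touch the 1000 bases on either side of a start and 49.4% without regions under 200 bases. The shares of the other gene sets were not calculated under these 2 rules, so they cannot be set beside these values. At a width of 800 bases the median GC content was 51.8%. The number of nearest protein-coding genes, 358, became 890 by protein-coding starts and 704 by the nearest 2 genes.

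A shorter or longer window holds fewer or more matches by construction. In the central 200 bases the shares were 15.7% for AP-1, 7.35% for ETS, 8.62% for KLF, 1.18% for the POU octamer, 2.94% for NF-kB, 4.21% for RUNX, 3.13% for forkhead, 0.588% for CRE, 1.27% for p63, 0.979% for CTCF and 2.94% for ISRE. Over whole regions they were 44.3% for AP-1, 21.7% for ETS, 29.97% for KLF, 11.9% for NF-kB, 16.7% for RUNX, 11.2% for forkhead, 5.39% for CTCF and 9.79% for ISRE. Depth could not be related to width, since no count was used.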
